A study of Homo sapiens with 12 samples.

Results

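The genes described here are 43 genes of the lysosome, out of 18404 genes measured in NB4 cells with and without a knockdown of HOTAIRM1. They were chosen by name, as textbook members of the organelle, though with earlier results of these data known. Every one of them had a probe set annotated to 1 gene. They comprise 15 genes of the vacuolar ATPase (V-ATPase), 19 luminal hydrolases, 6 membrane proteins, the 2 luminal cofactors PSAP and GRN, and the transcription factor TFEB. NB4, a line from a human acute promyelocytic leukemia, matures towards granulocytes under all-trans retinoic acid (ATRA), and HOTAIRM1 is a long non-coding RNA transcribed beside the HOXA genes.

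Lysosomes digest macromolecules delivered by endocytosis, phagocytosis and autophagy. The V-ATPase pumps protons into the lumen, with an ATP-splitting V1 part in the cytosol turning a V0 part in the membrane, and the acid that results activates the hydrolases. In myeloid cells the azurophil granules formed at the promyelocyte stage carry several of the same enzymes. TFEB is known as an activator of many lysosomal genes, which it reaches through the CLEAR element, a promoter motif built around CACGTG.

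The knockdown arms held NB4 cells with a lentiviral shRNA against HOTAIRM1, after 0.5 uM ATRA for 96 hours or untreated, each with 2 arrays of shRNA1 and 1 array of a different construct, shRNA2. The control arms, treated in the same way or left untreated, each held 1 array of wild type NB4 cells and 2 arrays of cells with a scrambled shRNA. The labels give no time in culture for untreated cells, so a matched time could not be checked for the ATRA comparisons. All shRNA lines were made in the pLKO.3G vector, sorted for GFP and grown out from single cells, a history that the wild type cells do not share, and the labels do not say whether duplicates came from different clones. Below, 3 values of a knockdown arm are given in the order shRNA1 replicate 1, shRNA1 replicate 2, shRNA2, and 3 values of a control arm in the order wild type, scrambled replicate 1, scrambled replicate 2. Levels are log2 intensities, and a difference of 1 is a doubling.

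Array medians ran from 7.73 to 7.81, and arrays of 1 arm correlated at 0.979 to 0.995 over all genes. HOTAIRM1 has no named probe set here, so the knockdown was not checked. The mean of 5 measured promyelocyte markers ran from 10.82 to 11.57 on untreated arrays and from 10.06 to 11.11 after ATRA. Single markers ranged widely, from 8.03 to 13.81 untreated and from 7.56 to 13.75 after ATRA, so the lowest values were near the array medians. MPO was among the high ones, at 13.51 to 13.81 on all untreated arrays. One array stood apart. On the first principal component, which held 66.7% of the variance, scrambled replicate 2 before ATRA scored -10.59, against -41.21 to -32.49 on the other untreated arrays. It was also the highest of the 6 untreated arrays for 23 of the 43 genes, 12 of them hydrolases. The B cell gene CD79A, singled out after its values were seen, read 10.91 on that array and 7.87 to 8.57 on the other untreated ones. The ATRA calls that changed without this array are named below, and several values are given with and without it.

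The promoters of 31 of the 43 genes could be read, in windows from 250 bases before to 50 bases after the start site (RefSeq, GRCh38.p14; for 5 genes with more than 1 window the first listed was taken). No window was matched for ATP6V0E1, ATP6V1A, ATP6V1B2, ATP6V1C1, ATP6V1H, CTSB, CTSS, HEXA, NAGLU, ASAH1, PSAP and LAMP2. The letters CACGTG, which read the same on both strands, were found in 10 of the 31 windows, or 32.3%, against 8.88% of the 14230 windows of tested genes. The longer TCACGTGA, which contains CACGTG and is likewise its own reverse complement, was found in 6 windows, or 19.4%, against 1.48%. The 4 windows below were chosen among those 6 by their p in the ATRA comparison of control cells, and show how close the motif lies to the start site, with every TCACGTGA in capitals. They belong to GAA (acid alpha-glucosidase, which splits glycogen), MCOLN1 (a cation channel of the lysosomal membrane), ATP6V0D1 (a V0 subunit) and CTSA (protective protein and carboxypeptidase), at chr17:80101331-80101630 on the plus strand, chr19:7522374-7522673 on the plus strand, chr16:67481108-67481407 on the minus strand and chr20:45891085-45891384 on the plus strand. Each is written 5′ to 3′ in the direction of its gene.
GAA: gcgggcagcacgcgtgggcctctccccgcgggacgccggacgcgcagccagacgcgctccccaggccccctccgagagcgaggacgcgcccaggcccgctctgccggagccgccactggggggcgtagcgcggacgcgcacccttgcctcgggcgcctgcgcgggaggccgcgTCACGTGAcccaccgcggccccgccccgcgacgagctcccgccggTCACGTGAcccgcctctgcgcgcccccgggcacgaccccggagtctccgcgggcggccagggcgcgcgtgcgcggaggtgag
MCOLN1: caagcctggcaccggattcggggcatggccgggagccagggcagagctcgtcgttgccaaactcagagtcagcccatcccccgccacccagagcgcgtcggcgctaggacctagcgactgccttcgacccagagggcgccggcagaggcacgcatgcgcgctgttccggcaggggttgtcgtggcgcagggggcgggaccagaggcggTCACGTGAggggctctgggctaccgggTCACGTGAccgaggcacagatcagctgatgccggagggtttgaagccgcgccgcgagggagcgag
ATP6V0D1: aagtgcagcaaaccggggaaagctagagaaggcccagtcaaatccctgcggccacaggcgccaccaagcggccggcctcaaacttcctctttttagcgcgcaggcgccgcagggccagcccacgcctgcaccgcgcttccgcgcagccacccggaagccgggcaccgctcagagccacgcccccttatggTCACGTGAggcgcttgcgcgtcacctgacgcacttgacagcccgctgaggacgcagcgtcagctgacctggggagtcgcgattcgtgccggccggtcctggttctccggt
CTSA: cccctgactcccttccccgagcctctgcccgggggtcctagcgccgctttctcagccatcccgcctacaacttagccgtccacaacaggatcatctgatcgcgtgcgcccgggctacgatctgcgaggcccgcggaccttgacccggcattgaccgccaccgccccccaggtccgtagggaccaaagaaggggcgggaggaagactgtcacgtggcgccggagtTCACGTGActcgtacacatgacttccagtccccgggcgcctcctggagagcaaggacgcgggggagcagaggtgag

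GAA and MCOLN1 each carry TCACGTGA at 2 places, with the first base of the inner CACGTG at -76 and -31 in GAA and at -41 and -14 in MCOLN1, counted from the start site. ATP6V0D1 has 1 such site, at -59 by the same count. CTSA has 1 at -25, and a second CACGTG at -42 that is not flanked in the same way. LAMP1 and ATP6V1G1 are the other 2 genes with TCACGTGA. LAMP1 carries it at 2 places as well, -28 and -1, with further CACGTG at -192, -176, -159 and -142, and ATP6V1G1 has it at -58. ATP6V0B, CD63, CTSD and NEU1 hold CACGTG without the longer motif. By class, CACGTG was found in 3 of 10 V-ATPase windows, 4 of 14 hydrolase windows and 3 of 5 membrane protein windows. These are matches of letters, not measurements of binding. The CLEAR element was already known from lysosomal genes, so the high share of its letters among them is no independent result.

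**Figure D1:**
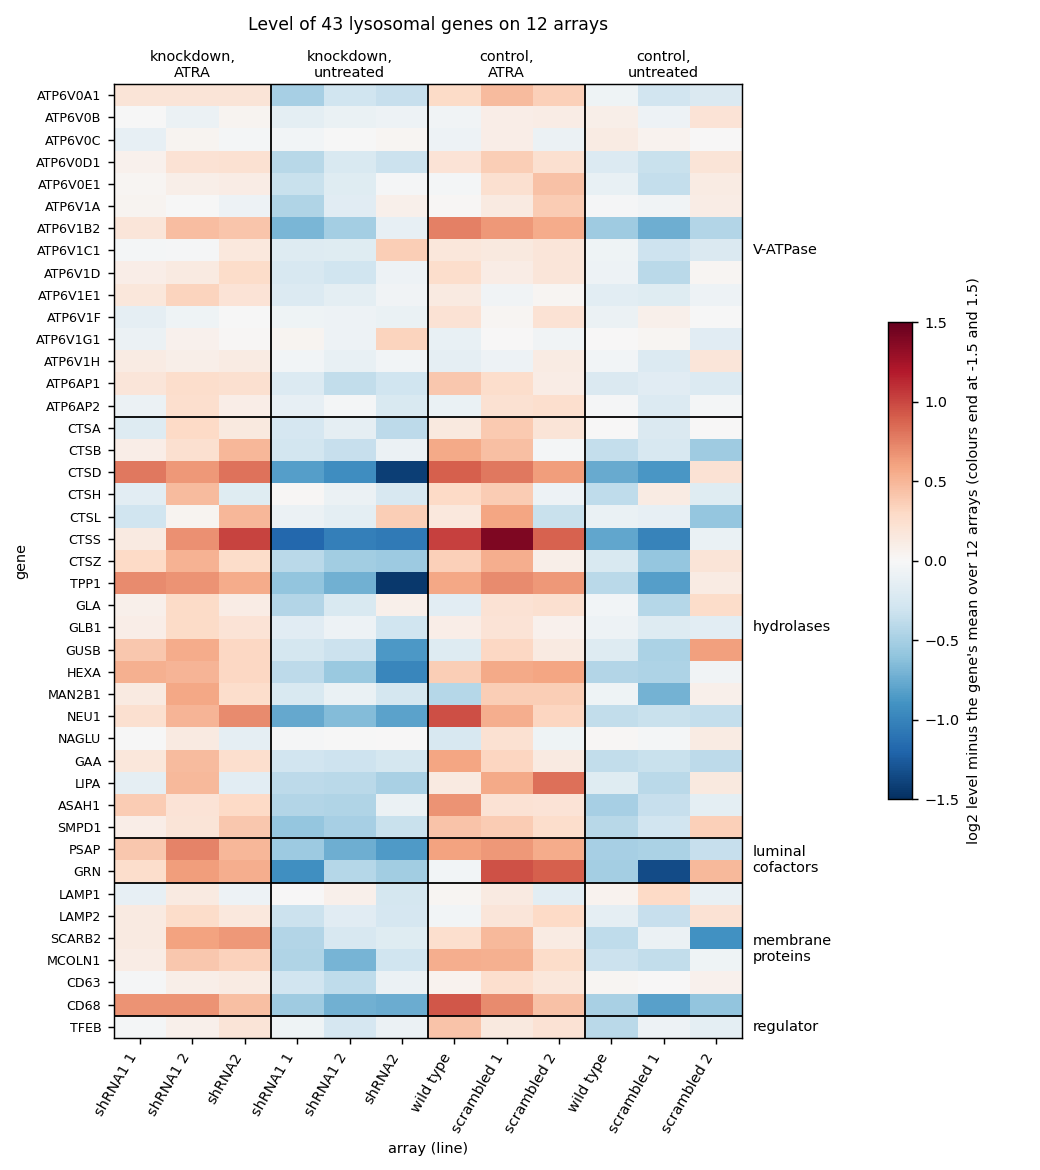
The heat map shows the log2 level of each of the 43 genes (rows, grouped by class) on each of the 12 arrays (columns, grouped by arm) minus the mean of that gene over the 12 arrays, in log2 units, red for higher and blue for lower. CTSD, CTSS, TPP1, PSAP and CD68 separate the ATRA columns from the untreated ones most strongly, and the last column, scrambled replicate 2 before ATRA, is the palest of the untreated ones for the hydrolases.

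ATRA raised a large part of the lysosomal genes, and lowered none past the test, in both kinds of cell. In knockdown cells 24 of the 43 genes rose and 0 fell (limma, Benjamini-Hochberg adjusted p under 0.05 over all 18404 genes), where 10.1% of all genes rose and 14.7% fell. In control cells 23 rose and 0 fell, where 15.2% of all genes rose and 20.9% fell. The median change of the 43 genes was 0.485 in knockdown cells and 0.392 in control cells, against -0.032 and 0.052 over all genes. Estimates were above 0 for 41 of the genes in knockdown cells and for 37 in control cells, against 7941 and 10473 of all 18404 genes. At an unadjusted p under 0.05, 28 members were higher in knockdown cells, 27 in control cells, and none lower in either. Over all genes, 2616 were higher and 3746 lower at that cut in knockdown cells, and 4176 and 4472 in control cells.

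The calls in knockdown and control cells shared 20 genes, which is 20 of 24 and 20 of 23. ATP6V1E1, GUSB, LAMP2 and CD63 passed in knockdown cells alone, and LIPA, GRN and TFEB in control cells alone, but for none of these 7 did the test of the difference between the responses pass. The 16 genes called in neither were ATP6V0B, ATP6V0C, ATP6V0E1, ATP6V1A, ATP6V1C1, ATP6V1F, ATP6V1G1, ATP6V1H, ATP6AP2, CTSA, CTSH, CTSL, GLA, MAN2B1, NAGLU and LAMP1. In these bulk samples, more cells of a given maturity and more RNA per cell cannot be told apart. Without scrambled replicate 2 before ATRA, 25 genes rose in knockdown cells, with GRN gained, and 24 in control cells, with LAMP2 and ATP6V0E1 gained and GLB1 lost. In that fit the control change was 0.39 for LAMP2 (adjusted p = 0.0202, limma) and 0.45 for ATP6V0E1 (adjusted p = 0.0269), so LAMP2 then passed in both kinds of cell and GRN did too.

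Markers of other cell types were measured beside these changes, where 10.1% of all genes rose in knockdown cells and 15.2% in control cells. Of 6 monocyte and macrophage markers, 2 rose in knockdown cells (CSF1R and CD163) and 4 in control cells (those and CD14 and MARCO). Their mean level ran from 6.90 to 7.13 after ATRA in knockdown cells, against 6.71 to 6.94 untreated, and from 7.23 to 7.30 after ATRA in control cells, against 6.71 to 6.80 untreated. Array values have no true zero, and no marker of that list read above 9.15 on any array. Of 5 measured promyelocyte markers, CTSG fell in knockdown cells (log2 change -2.45, adjusted p = 0.00356 by limma), and none passed in control cells. None of 4 lymphoid markers passed in either, and of 2 erythroid markers ALAS2 rose in control cells. The part of these shifts in the lysosomal changes was not tested.

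**Figure D2:**
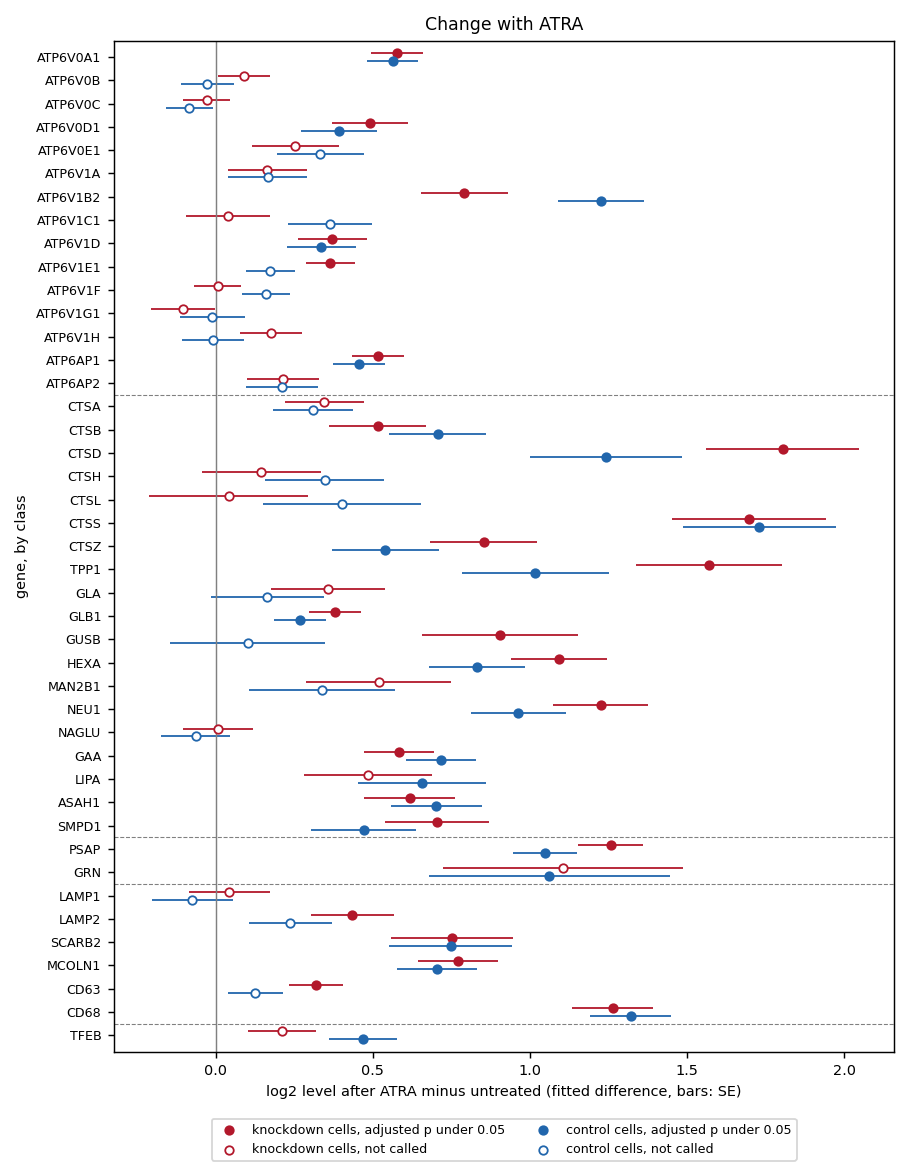
Each gene has a point for the log2 change with ATRA (fitted difference, x axis) in knockdown cells and in control cells, with its standard error as a bar; filled points passed an adjusted p of 0.05. The V-ATPase genes at the top lie between -0.10 and 0.58 apart from ATP6V1B2, and the hydrolases below them spread up to 1.80.

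Median changes were larger among the hydrolases than among the V-ATPase genes. Of 19 hydrolases, 12 rose in knockdown cells and 12 in control cells, with median changes of 0.583 and 0.539. Of 15 V-ATPase genes, 6 rose in knockdown cells and 5 in control cells, with median changes of 0.213 and 0.210. The V-ATPase median minus the hydrolase median was -0.370 in knockdown cells and -0.329 in control cells. A different quantity was taken on each array: the V-ATPase minus hydrolase median of levels, each gene centred on its mean over 12 arrays. It had a pooled SD of 0.125 within arms, which is not an error of the 2 values above. The control value rests in part on scrambled replicate 2: it was -0.465 without its untreated array and -0.459 without its ATRA array. It was smaller without scrambled replicate 1 after ATRA (-0.239), without wild type after ATRA (-0.247), and with scrambled and shRNA1 arrays only (-0.182). Among the 6 membrane proteins 5 rose in knockdown cells and 3 in control cells, with medians of 0.593 and 0.471. These medians carry no test. The classes also differed in level. Untreated V-ATPase genes had a median level of 11.36 in knockdown cells and 11.31 in control cells, against 9.96 and 10.12 for hydrolases. The part of the level in the size of the changes was not tested.

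**Figure D3:**
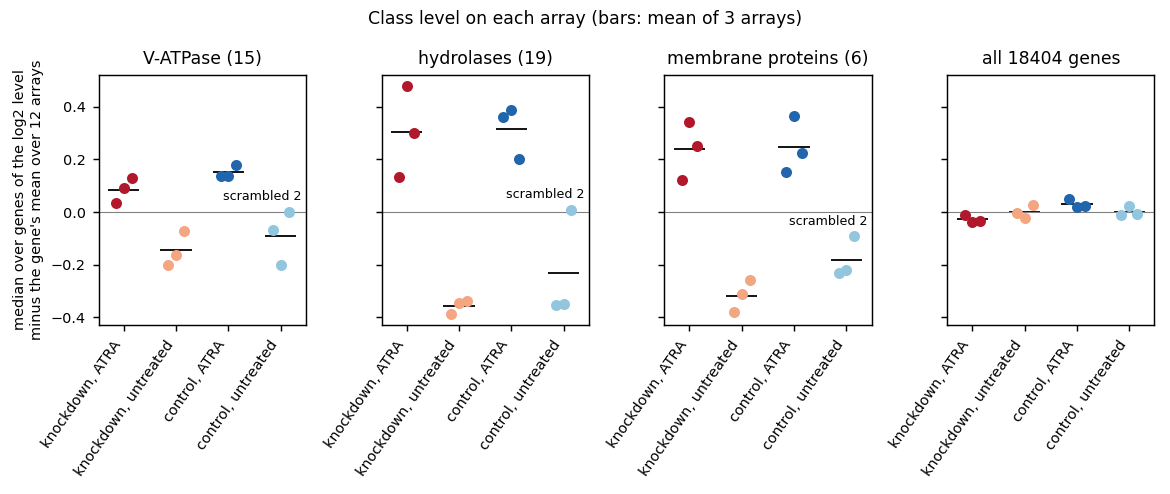
Each point is 1 array, and its height is the median over the genes of a class of the log2 level minus each gene's mean over 12 arrays; bars are the mean of the 3 arrays of an arm. The hydrolase medians span 0.132 to 0.480 after ATRA in knockdown cells, against -0.388 to -0.338 untreated, and scrambled replicate 2 before ATRA (0.009) lies above the other untreated arrays, while the medians over all genes stay near 0.

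The proteases held the 3 largest changes among the hydrolases, in knockdown and in control cells alike. Of 8 lysosomal proteases 5 rose in knockdown cells and 5 in control cells: CTSB, CTSD, CTSS, CTSZ and TPP1 in both. The knockdown call of CTSB was lost without either shRNA1 array before ATRA, or without shRNA1 replicate 2 or shRNA2 after it (adjusted p 0.0625 to 0.117, limma), and the control call of CTSZ without either wild type array or either array of scrambled replicate 1 (0.0704 to 0.0988), with a control change of 0.54 over all arrays and 0.35 without scrambled replicate 1 before ATRA. CTSD, the main aspartic protease of the lumen, read 13.81, 13.67 and 13.84 after ATRA in knockdown cells, against 12.20, 12.09 and 11.61 untreated. In control cells it read 13.91, 13.81 and 13.65 after ATRA, against 12.27, 12.14 and 13.24 untreated. Every ATRA array lay above every untreated one, but 1 untreated control array, scrambled replicate 2, sat close to the treated ones. The change was 1.80 ± 0.24 (SE) in knockdown cells, or 3.49-fold (adjusted p = 0.000554, limma), and 1.24 ± 0.24 in control cells, or 2.37-fold (adjusted p = 0.00231). Without that array the control change was 1.59 ± 0.15. With scrambled and shRNA1 arrays only, the control change was 1.04 for CTSD (adjusted p = 0.0542, limma) and 0.60 for CTSB (adjusted p = 0.0525), and neither passed.

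CTSS, a cysteine protease best known from antigen-presenting cells, read 9.30, 9.86 and 10.18 after ATRA in knockdown cells, against 7.99, 8.15 and 8.11 untreated. Control cells gave 10.20, 10.57 and 10.06 after ATRA, against 8.40, 8.17 and 9.07 untreated. The treated and untreated arrays did not overlap in either kind of cell. Its changes were close, at 1.70 ± 0.24 in knockdown cells (adjusted p = 0.000717, limma) and 1.73 ± 0.24 in control cells (adjusted p = 0.000333), and the difference between them was -0.03 with an SE of 0.35.

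TPP1, a tripeptidyl peptidase lost in a childhood form of neuronal ceroid lipofuscinosis, read 12.10, 12.07 and 11.96 after ATRA in knockdown cells, against 10.80, 10.67 and 9.95 untreated. In control cells the readings were 11.98, 12.10 and 12.04 after ATRA, against 10.99, 10.57 and 11.52 untreated. The 6 treated arrays were close together, while the untreated ones were spread, with shRNA2 lowest and scrambled replicate 2 highest. The change was 1.57 ± 0.23 in knockdown cells (adjusted p = 0.000816, limma) and 1.02 ± 0.23 in control cells (adjusted p = 0.00574). CTSA, CTSH and CTSL did not pass, with estimates of 0.35, 0.15 and 0.04 in knockdown cells and 0.31, 0.35 and 0.40 in control cells.

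**Figure D4:**
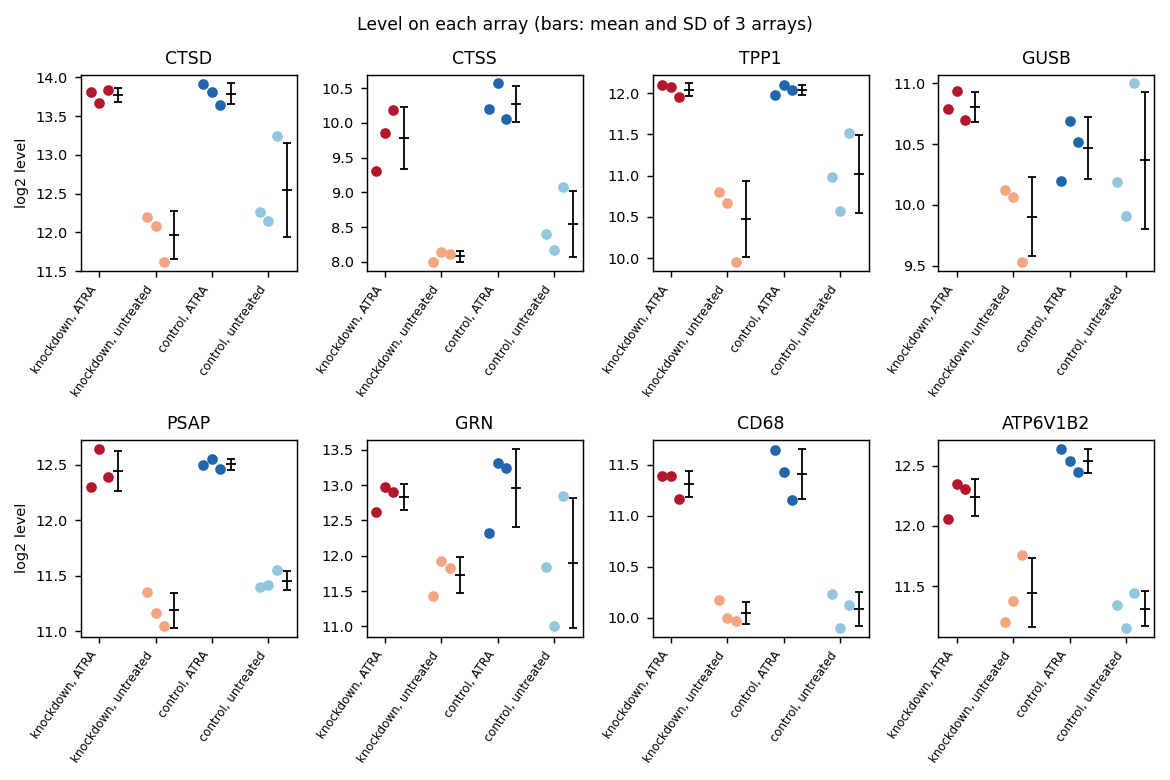
Each panel plots the log2 level of 1 gene on each of the 12 arrays, by arm, with the mean and SD of 3 arrays beside the points; each panel has its own axis, which does not start at 0. In CTSD, TPP1, GUSB and GRN the untreated control arm is the widest, since scrambled replicate 2 (CTSD 13.24, TPP1 11.52, GUSB 10.9998, GRN 12.84) lies above the other 2 arrays.

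Among 8 glycosidases, 5 rose in knockdown cells and 4 in control cells, and NEU1, HEXA, GAA and GLB1 rose in both. NEU1, a sialidase that works in a complex with CTSA, read 10.41, 10.68 and 10.88 after ATRA in knockdown cells, against 9.40, 9.53 and 9.37 untreated. Control cells read 11.14, 10.71 and 10.49 after ATRA, against 9.80, 9.84 and 9.82 untreated. Treated and untreated arrays were well separated, by 1.22 ± 0.15 in knockdown cells (adjusted p = 0.000394, limma) and 0.96 ± 0.15 in control cells (adjusted p = 0.000615). HEXA, the alpha chain of beta-hexosaminidase A, changed by 1.09 in knockdown cells and 0.83 in control cells, and GAA by 0.58 and 0.72 in the same order. GLB1, the lysosomal beta-galactosidase, rose by 0.38 in knockdown cells and 0.27 in control cells (adjusted p = 0.0251, limma). The control call of GLB1 was lost without wild type after ATRA, or without either scrambled replicate 1 array or the untreated array of scrambled replicate 2, at an adjusted p of 0.0507 to 0.0828.

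GUSB, which removes glucuronic acid from glycosaminoglycans, was the glycosidase called in knockdown cells alone. It read 10.79, 10.94 and 10.70 after ATRA in knockdown cells, against 10.12, 10.06 and 9.53 untreated. In control cells it read 10.19, 10.69 and 10.52 after ATRA, against 10.19, 9.91 and 10.9998 untreated. The knockdown arms did not overlap, while in the control arms the highest array of all 6 was an untreated one, scrambled replicate 2. The change was 0.91 ± 0.25 in knockdown cells (adjusted p = 0.0190, limma) and 0.10 ± 0.25 in control cells (adjusted p = 0.765). Without scrambled replicate 2 before ATRA the control change was 0.42 ± 0.19 (adjusted p = 0.111, limma). The knockdown call was lost without the untreated shRNA2 array or without either shRNA1 array after ATRA, at an adjusted p of 0.0504 to 0.0822. GUSB has pseudogenes of similar sequence, and their part in the signal was not tested.

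The 3 lipid enzymes are ASAH1 (acid ceramidase), SMPD1 (acid sphingomyelinase) and LIPA (which splits cholesteryl esters and triglycerides). ASAH1 rose by 0.62 in knockdown cells and 0.70 in control cells. SMPD1 rose by 0.70 in knockdown cells and 0.47 in control cells (adjusted p = 0.0446, limma), a control call lost without each of 11 of the 12 arrays, at an adjusted p of 0.0501 to 0.179, and kept without scrambled replicate 2 before ATRA. With scrambled and shRNA1 arrays only, the control change was 0.29 for SMPD1 (adjusted p = 0.334) and 0.46 for ASAH1 (adjusted p = 0.0279). LIPA read 9.92, 10.54 and 9.90 after ATRA in knockdown cells, against 9.67, 9.65 and 9.57 untreated. Its control readings were 10.19, 10.62 and 10.88 after ATRA, against 9.87, 9.65 and 10.20 untreated. All 3 treated knockdown arrays lay above the untreated ones, but only shRNA1 replicate 2 by a wide margin. The change was 0.49 ± 0.20 in knockdown cells (adjusted p = 0.111, limma) and 0.66 ± 0.20 in control cells (adjusted p = 0.0260), and the control call was lost without untreated wild type, without either array of scrambled replicate 1 or without scrambled replicate 2 after ATRA, at an adjusted p of 0.0665 to 0.0977.

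Of the 2 luminal cofactors, PSAP varied less within arms than GRN. It is the precursor of the saposins, small proteins that present sphingolipids to their hydrolases. It read 12.30, 12.64 and 12.39 after ATRA in knockdown cells, against 11.35, 11.16 and 11.04 untreated. Control cells read 12.50, 12.55 and 12.46 after ATRA, against 11.40, 11.42 and 11.55 untreated. The gap between the treated and untreated arrays was far wider than the spread within any arm, at 1.26 ± 0.10 in knockdown cells (adjusted p = 6.66e-05, limma) and 1.05 ± 0.10 in control cells (adjusted p = 7.00e-05).

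GRN, which encodes progranulin, had similar estimates and much more spread. It read 12.62, 12.98 and 12.90 after ATRA in knockdown cells, against 11.44, 11.92 and 11.83 untreated. Control cells read 12.32, 13.31 and 13.24 after ATRA, against 11.84, 11.01 and 12.84 untreated. The knockdown arms were apart, and the control arms overlapped through scrambled replicate 2 before ATRA and wild type after it. The change was 1.10 ± 0.38 in knockdown cells (adjusted p = 0.0552, limma) and 1.06 ± 0.38 in control cells (adjusted p = 0.0486). The control call was lost without each of 10 of the 12 arrays, all but scrambled replicate 2 before ATRA and wild type after it, at an adjusted p of 0.0577 to 0.164. Its control change was 0.62 without scrambled replicate 1 before ATRA, the array with the lowest reading. Without scrambled replicate 2 before ATRA both passed, at 1.10 in knockdown cells (adjusted p = 0.0109) and 1.53 in control cells (adjusted p = 0.00267).

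Among the membrane proteins, CD68, a heavily glycosylated protein of late endosomes and lysosomes in phagocytes, had the largest change. It read 11.39, 11.38 and 11.16 after ATRA in knockdown cells, against 10.18, 10.00 and 9.97 untreated. Control cells read 11.65, 11.42 and 11.15 after ATRA, against 10.23, 9.90 and 10.13 untreated. The arms were separated by 1.26 ± 0.13 in knockdown cells (adjusted p = 0.000156, limma) and 1.32 ± 0.13 in control cells (adjusted p = 6.85e-05).

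SCARB2 carries beta-glucocerebrosidase to the lysosome. It read 8.86, 9.32 and 9.38 after ATRA in knockdown cells, against 8.28, 8.48 and 8.54 untreated. Control cells read 8.98, 9.21 and 8.85 after ATRA, against 8.34, 8.64 and 7.82 untreated. Here scrambled replicate 2 was the lowest untreated array, not the highest. SCARB2 rose by 0.75 ± 0.19 in knockdown cells (adjusted p = 0.0147, limma) and by 0.75 ± 0.19 in control cells (adjusted p = 0.0115). The knockdown call was lost without shRNA1 replicate 1 before ATRA, or without shRNA1 replicate 2 or shRNA2 after it, at an adjusted p of 0.0552 to 0.0623. With scrambled and shRNA1 arrays only, both calls were lost, at 0.71 in knockdown cells (adjusted p = 0.146, limma) and 0.80 in control cells (adjusted p = 0.0912).

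MCOLN1, whose promoter holds TCACGTGA at 2 places, read 10.28, 10.58 and 10.52 after ATRA in knockdown cells, against 9.72, 9.47 and 9.88 untreated. Control cells read 10.71, 10.70 and 10.45 after ATRA, against 9.84, 9.80 and 10.10 untreated. No treated array was as low as any untreated one of its arm pair, and the change was 0.77 ± 0.13 in knockdown cells (adjusted p = 0.00137, limma) and 0.70 ± 0.13 in control cells (adjusted p = 0.00147). The major membrane glycoproteins differed from each other. LAMP1, whose promoter also holds TCACGTGA at 2 places, showed 0.04 in knockdown cells and -0.07 in control cells, and neither passed. LAMP2 rose by 0.43 in knockdown cells (adjusted p = 0.0301, limma), a call lost without any 1 of the 6 knockdown arrays at an adjusted p of 0.0516 to 0.102, and showed 0.24 in control cells over all arrays. Without scrambled replicate 2 before ATRA the control change of LAMP2 was 0.39 and passed (adjusted p = 0.0202).

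CD63, a tetraspanin that also marks azurophil granules, read 9.07, 9.17 and 9.21 after ATRA in knockdown cells, against 8.80, 8.70 and 8.99 untreated. Control cells read 9.13, 9.33 and 9.26 after ATRA, against 9.11, 9.09 and 9.15 untreated. The untreated knockdown arrays were the low ones. The change was 0.32 ± 0.09 in knockdown cells (adjusted p = 0.0186, limma) and 0.13 ± 0.09 in control cells (adjusted p = 0.271), and the knockdown call was lost without either shRNA1 array before ATRA, or without shRNA1 replicate 2 or shRNA2 after it, at an adjusted p of 0.0562 to 0.0795.

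Within the V-ATPase, 2 of 5 V0 genes, 3 of 8 V1 genes and 1 of 2 accessory genes rose in knockdown cells, and 2, 2 and 1 in control cells. ATP6V1B2 encodes the B subunit that, with the A subunit, forms the ATP-splitting head. It read 12.06, 12.35 and 12.30 after ATRA in knockdown cells, against 11.20, 11.37 and 11.76 untreated. Control cells read 12.64, 12.54 and 12.44 after ATRA, against 11.35, 11.16 and 11.44 untreated. It stood out in its class, with a change of 0.79 ± 0.14 in knockdown cells (adjusted p = 0.00171, limma) and 1.23 ± 0.14 in control cells (adjusted p = 0.000109). ATP6V1A, the partner of the B subunit in that head, showed 0.16 in knockdown cells and 0.17 in control cells and did not pass.

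ATP6V0A1 encodes an isoform of the V0 subunit that forms the proton path together with the membrane ring. It read 10.69, 10.69 and 10.69 after ATRA in knockdown cells, against 10.00, 10.20 and 10.15 untreated. Control cells read 10.78, 10.98 and 10.86 after ATRA, against 10.43, 10.21 and 10.28 untreated. The separation was clean, at 0.58 ± 0.08 in knockdown cells (adjusted p = 0.000699, limma) and 0.56 ± 0.08 in control cells (adjusted p = 0.000415). The ring subunits ATP6V0C and ATP6V0B showed -0.03 and 0.09 in knockdown cells and -0.08 and -0.03 in control cells, and did not pass.

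ATP6AP1, an accessory protein needed for assembly of V0, read 11.91, 11.99 and 11.97 after ATRA in knockdown cells, against 11.53, 11.36 and 11.43 untreated. Control cells read 12.14, 11.9997 and 11.84 after ATRA, against 11.51, 11.56 and 11.53 untreated. The rise was 0.52 ± 0.08 in knockdown cells (adjusted p = 0.00117, limma) and 0.46 ± 0.08 in control cells (adjusted p = 0.00146). With scrambled and shRNA1 arrays only, the control change of ATP6AP1 was 0.37 and did not pass (adjusted p = 0.0515, limma). ATP6V0D1 rose by 0.49 in knockdown cells and 0.39 in control cells. ATP6V1D, of the central rotor, rose by 0.37 in knockdown cells and 0.34 in control cells. Calls of both turned on single arrays. ATP6V0D1 lost its control call without untreated wild type or either array of scrambled replicate 1 (adjusted p 0.0797 to 0.0921, limma). ATP6V1D lost its control call without either wild type array, without scrambled replicate 1 before ATRA or without scrambled replicate 2 after it (0.0552 to 0.107), and its control change was 0.21 without scrambled replicate 1 before ATRA. It lost its knockdown call without either shRNA1 array before ATRA, or without shRNA1 replicate 2 or shRNA2 after it (0.0563 to 0.104).

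ATP6V1E1, of the stalk that holds the head in place, read 10.35, 10.51 and 10.39 after ATRA in knockdown cells, against 9.98, 10.04 and 10.13 untreated. Control cells read 10.32, 10.12 and 10.20 after ATRA, against 10.02, 9.99 and 10.11 untreated. Both pairs of arms were apart, narrowly so in control cells. The change was 0.36 ± 0.08 in knockdown cells (adjusted p = 0.00541, limma) and 0.17 ± 0.08 in control cells (adjusted p = 0.102).

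TFEB itself rose in control cells. It read 7.81, 7.92 and 8.04 after ATRA in knockdown cells, against 7.78, 7.60 and 7.75 untreated. Control cells read 8.28, 7.99 and 8.06 after ATRA, against 7.44, 7.77 and 7.703 untreated. These readings lay around the array medians, which ran from 7.73 to 7.81, and array values have no true zero. The lowest treated knockdown array lay just above the highest untreated one, and the control arms were further apart. The change was 0.21 ± 0.11 in knockdown cells (adjusted p = 0.196, limma) and 0.47 ± 0.11 in control cells (adjusted p = 0.00604). With scrambled and shRNA1 arrays only the control change was 0.29 and did not pass (adjusted p = 0.104, limma). The difference of -0.26 ± 0.15 between the responses did not pass (adjusted p = 0.416). Among the 31 genes with a promoter window, those with CACGTG rose in 6 of 10 cases in knockdown cells and 5 of 10 in control cells. Those without it rose in 11 of 21 cases in knockdown cells and 12 of 21 in control cells. Genes with the longer TCACGTGA rose in 3 of 6 cases in each kind of cell.

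The knockdown comparisons asked whether cells with less HOTAIRM1, as labelled, carried more or less of these transcripts. Before ATRA, 0 of the 43 genes were higher and 0 lower in knockdown cells by limma, as for all genes (0% higher, 0% lower). The lowest adjusted p was 0.999, 7 members had an unadjusted p under 0.05, and all 7 were lower in knockdown cells. Over all 18404 genes, 727 were under that unadjusted cut, 299 higher and 428 lower. Estimates were below 0 for 31 of 43 members and for 8982 of all genes, with medians of -0.095 and 0.003. Without scrambled replicate 2 before ATRA, they were below 0 for 27 members and 9727 of all genes, with medians of -0.052 and -0.007. In that fit only CD63 and NEU1 of the 7 kept an unadjusted p under 0.05 (0.0214 and 0.0475, limma). PSAP was at 0.0797, ATP6V0A1 at 0.0534, and ATP6V0B, CTSD and TPP1 at 0.191, 0.150 and 0.175.

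The smallest p before ATRA belonged to CD63, with the values given above: untreated knockdown arrays at 8.80, 8.70 and 8.99, all below the control arrays at 9.11, 9.09 and 9.15. Its difference was -0.28 with a 95% interval of -0.47 to -0.09. PSAP and NEU1 came next, at -0.27 (-0.50 to -0.04) and -0.39 (-0.72 to -0.06). In both genes every untreated knockdown array lay below every untreated control array, as in 6 of the 43 members and 743 of all 18404 genes. The differences of CTSD and TPP1, -0.58 (-1.11 to -0.05) and -0.55 (-1.06 to -0.04), shrank without scrambled replicate 2 before ATRA, to -0.24 and -0.31.

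After ATRA, 0 members were higher and 0 lower in knockdown cells by limma, against 0.0543% and 0.00543% of all genes. Here 4 members had an unadjusted p under 0.05, 1 higher and 3 lower, and the lowest adjusted p was 0.0941. Over all 18404 genes, 5171 were under that unadjusted cut, 2212 higher and 2959 lower. Without scrambled replicate 2 before ATRA, 420 of all genes were higher and 281 lower after ATRA, and still 0 members were called. With each array centred on its median, 249 of all genes were higher and 108 lower, and with quantile normalization 138 and 142, again with 0 members. The 43 estimates ran from -0.49 to 0.34, with a median of -0.060 against -0.029 over all genes.

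ATP6V1F, a small V1 subunit, had the smallest p after ATRA. It read 12.04, 12.11 and 12.17 in treated knockdown cells, against 12.39, 12.21 and 12.40 in treated control cells. The arms were just apart, by -0.23 with a 95% interval of -0.39 to -0.06 (adjusted p = 0.0941, limma). In untreated cells the same gene read 12.11, 12.11 and 12.08 with the knockdown, against 12.09, 12.25 and 12.18 without it, and these overlapped. ATP6V1E1 went the other way after ATRA, at 0.20 (0.03 to 0.37), with all 3 treated knockdown arrays above the treated control arrays. Over all 18404 genes, the treated knockdown arrays lay wholly above the control ones in 2639 and wholly below in 3816. Over the 43 members the counts were 2 and 3. LIPA was at -0.45 (-0.89 to 0.00), and shRNA1 replicate 2, at 10.54, lay within the control range.

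**Figure D5:**
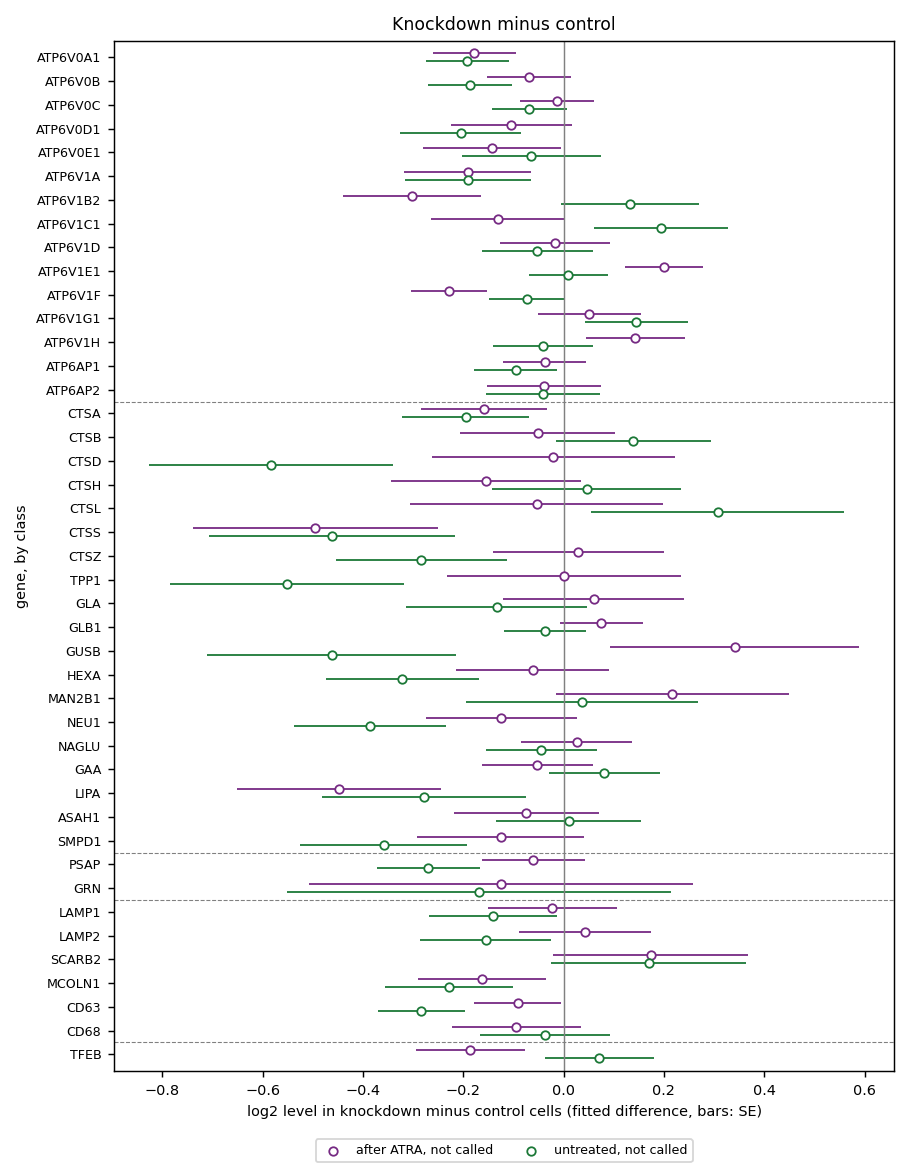
For each gene the points give the log2 level in knockdown minus control cells (fitted difference, x axis), after ATRA and untreated, with the standard error as a bar; open points did not pass an adjusted p of 0.05. No point is filled, and most lie left of 0, with CTSD (-0.58) and TPP1 (-0.55) the lowest of the untreated ones.

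The test of the difference between the 2 ATRA responses called 0 members higher and 0 lower by limma, as for all genes (0% and 0%). At an unadjusted p under 0.05 there were 2 members, against 2815 of all 18404 genes (1051 higher and 1764 lower). GUSB was at 0.80 (0.04 to 1.57; adjusted p = 0.314) and fell short by more without scrambled replicate 2 before ATRA, at 0.49 (adjusted p = 0.395). ATP6V1B2 was at -0.43 (-0.86 to -0.01; adjusted p = 0.320), a smaller rise in knockdown cells, and at -0.50 without that array (adjusted p = 0.341). ATP6V1E1 followed at 0.19 (-0.05 to 0.43). The median difference over the 43 genes was 0.055, and -0.001 without that array.

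These 0 counts do not show that knockdown and control cells were alike. The 95% intervals reached a median of 0.28 to either side of the estimate in each knockdown comparison (0.16 to 0.84 over the genes) and 0.40 for the difference between responses (0.23 to 1.18). They lay wholly within 1 log2 unit of 0 for 38 of the 43 genes before ATRA, 42 after it, and 38 for the difference between responses.

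Other genes of the organelle, outside the 43, included rises and falls. Over all genes, 10.1% rose and 14.7% fell in knockdown cells, and 15.2% and 20.9% in control cells. The counts of this and the following lists are small and were not tested against those shares. Of 13 measured further V-ATPase subunits and assembly factors, 2 rose and 3 fell in knockdown cells, and 3 rose and 2 fell in control cells. DMXL2, which promotes pump assembly, rose by 0.88 in knockdown cells and 0.87 in control cells (adjusted p = 0.00054 and 0.00026, limma). TCIRG1, another isoform of the V0 subunit encoded by ATP6V0A1, rose by 1.26 in knockdown cells and 0.90 in control cells (adjusted p = 0.00132 and 0.00589, limma). ATP6V0A2, yet another isoform, fell, with changes of -0.32 in knockdown cells and -0.45 in control cells (adjusted p = 0.0181 and 0.00186). VMA21, which helps to assemble V0, likewise fell, with -0.35 in knockdown cells and -0.57 in control cells (adjusted p = 0.0153 and 0.000702). The others called were ATP6V1C2, which fell in knockdown cells, and ATP6V1B1, which rose in control cells.

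Of 20 further hydrolases, 5 rose and 0 fell in knockdown cells, and 6 rose and 1 fell in control cells. IDUA, an enzyme of glycosaminoglycan breakdown, rose by 1.13 in knockdown cells and 0.76 in control cells, and ARSA, which removes sulfate from sulfatide, by 0.94 and 0.63 in the same order (each with an adjusted p under 0.05 by limma). MANBA, a beta-mannosidase, rose by 1.003 in knockdown cells and 0.56 in control cells, ACP2 rose in both, GALNS in knockdown cells alone, and CTSC and CTSF in control cells alone. The gene that fell in control cells was CTSW (-1.62, adjusted p = 0.0276), a cathepsin known from lymphocytes, which read 10.73 on scrambled replicate 2 before ATRA, against 8.33 to 10.15 on the other untreated arrays. Of 18 further membrane and cofactor genes, 7 rose and 1 fell in knockdown cells, and 3 rose and 1 fell in control cells. The cholesterol carrier NPC2 rose by 2.0 in knockdown cells and 1.78 in control cells (adjusted p = 0.000490 and 0.000398), more than any of the 43 genes in either. GM2A, a lipid carrier for beta-hexosaminidase, and OSTM1, the partner of a chloride transporter, also rose in both, and TMEM192 fell in both (-0.38 in knockdown cells and -0.56 in control cells). NPC1, LAPTM5, TMEM175 and MFSD8 rose in knockdown cells alone.

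Of 5 sorting genes, 2 rose and 0 fell in knockdown cells, and 1 rose and 1 fell in control cells. IGF2R, the receptor that brings mannose 6-phosphate tagged hydrolases to the lysosome, rose by 0.59 in knockdown cells and 0.53 in control cells (adjusted p = 0.00159 and 0.00203, limma). M6PR, the smaller receptor for the same tag, rose in knockdown cells alone, and NAGPA, which trims that tag, fell in control cells alone. Of 14 regulators, 4 rose and 0 fell in knockdown cells, and 5 rose and 1 fell in control cells. TFE3, a close relative of TFEB, rose by 0.99 in knockdown cells and 0.81 in control cells (adjusted p = 0.00114 and 0.00227). FLCN and FNIP1 also rose in both, LAMTOR4 in knockdown cells alone, and RRAGD and FNIP2 in control cells alone. A call in 1 kind of cell alone is no test of a difference between them. MTOR, the kinase that keeps TFEB in the cytosol, fell in control cells (-0.36, adjusted p = 0.00519) and showed -0.09 in knockdown cells. Of 4 cathepsin inhibitors 1 fell in both: CST7, cystatin F, read 8.78, 8.65 and 8.62 after ATRA in knockdown cells, against 11.50, 11.57 and 12.02 untreated, a change of -3.01 (adjusted p = 5.96e-05). In control cells CST7 changed by -2.10 (adjusted p = 0.000106).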

How the data were processed

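RNA from 12 NB4 samples, 3 in each of 4 arms, was hybridised to Affymetrix ST arrays. The authors deposited log2 values, for which RMA and limma are named per the submitters' processing notes without versions, and they were used unchanged (range 2.67 to 14.63). Of 32321 probe sets, 19158 had 1 gene in the platform annotation, 1388 several and 11775 were not listed. The set with the highest mean was kept per gene, giving 18404 genes, and none was removed for a low value. limma 3.58.1 in R 4.3.3 fitted the 4 arm means (eBayes, 8 residual degrees of freedom). Two-sided p-values were adjusted by Benjamini-Hochberg within each comparison, with a threshold of 0.05. With 3 arrays on each side, the smallest two-sided p of an exact permutation test is 0.1, so genes were tested by the model alone. The p-values set each difference against the spread between arrays of an arm. The labels call the scrambled and shRNA1 duplicates biological replicates, and each arm mixes wild type with scrambled cells, or shRNA1 with shRNA2. That spread may also be technical in part, and the number of arrays limits the precision.

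The members, the lists and the markers were chosen with earlier results of these data known. Named members are the 3 of each class with the largest mean ATRA change, the 3 with the smallest p in each knockdown comparison, and TFEB. Genes of the other lists are named where they passed. The fit was tested on simulated data. Promoter windows are from RefSeq, GRCh38.p14.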

Additional observations from a re-analysis of the deposited data

How the results depend on the processing

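Of 21 alternatives, 12 left out 1 array, and none reversed a called member. Restricting the fit to scrambled and shRNA1 arrays gave 15 members higher in knockdown cells, 15 of them shared with the 24. It gave 12 higher in control cells, 11 of them shared with the 23. The control calls lost in it were those of ATP6V0D1, ATP6V1D, ATP6AP1, CTSB, CTSD, CTSZ, GLB1, LIPA, SMPD1, GRN, SCARB2 and TFEB. The knockdown calls lost were those of ATP6V0D1, ATP6V1D, CTSB, CTSZ, GLB1, GUSB, SMPD1, LAMP2 and SCARB2. Fewer arrays entered that fit. Under it the V-ATPase minus hydrolase median in control cells was -0.182, and with array weights -0.482, against -0.329; the cause was not tested. Leaving out 1 array gave -0.465 to -0.239 for that value, 18 to 25 members higher in knockdown cells and 16 to 24 in control cells. For the pairing, deviations of the same line before and after ATRA correlated at 0.119 to 0.226 in the 3 knockdown lines and 0.193 in scrambled replicate 2, but at -0.108 in scrambled replicate 1 and -0.173 in wild type; not every pair was over 0.1, so the numbers were not taken to pair the samples. Line as a fixed replicate block gave 25 members higher in knockdown cells and 24 in control cells, and as a random replicate block 25 and 24. Quantile normalization gave 25 and 27, and median centring 24 and 19. Leaving out the dimmest 33.3% of genes removed 1 member. The calls of 14 members in knockdown cells and 11 in control cells held under all 21. No member was called in a knockdown comparison under any alternative that could be fitted; with the fixed block, knockdown and line cannot be told apart. Over all genes, the calls after ATRA (10 higher and 1 lower in knockdown cells) came to 249 and 108 with median centring, 138 and 142 with quantile normalization, 383 and 313 with array weights, 44 and 19 without the dimmest genes, 17 and 11 with a robust trended eBayes, and 0 and 0 with scrambled and shRNA1 arrays only. With ATRA, the 1854 genes higher and 2714 lower in knockdown cells came to 946 and 1415 with scrambled and shRNA1 arrays only, and the 2800 and 3844 in control cells to 763 and 2218; array weights gave 4450 higher in control cells.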
